A study of Macaca fascicularis with 22 samples.

Results

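Matrix proteoglycans and the hyaluronan synthase HAS2 were followed across 3 tissue labels and 2 birth weight groups of newborn cynomolgus macaques (Macaca fascicularis). The genes were chosen by accession: probes were taken where the array names the human RefSeq transcript of DCN (NM_001920), BGN (NM_001711), ASPN (NM_017680), LUM (NM_002345), FMOD (NM_002023), PRELP (NM_002725), OGN (NM_033014), VCAN (NM_004385) or HAS2 (NM_005328). Of these 9 accessions, 8 were on the array, with 1 probe each, out of 19376 accessions in all, and all 8 probes passed the filter on dim probes. OGN was represented by another transcript of the gene (NM_014057), which is described beside the others and not counted among the 8.

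These molecules build the soft, hydrated part of connective tissue. A proteoglycan is a core protein that carries glycosaminoglycan chains. The small leucine-rich proteoglycans (DCN, BGN, ASPN, LUM, FMOD, PRELP and OGN) sit on or between collagen fibrils and influence how the fibrils assemble, whereas VCAN, or versican, is a large chondroitin sulfate proteoglycan that binds hyaluronan. Hyaluronan itself is a long sugar chain without a core protein, made at the plasma membrane by synthases such as HAS2. Skeletal muscle holds these molecules in its connective tissue sheaths and tendon junctions, and the umbilical cord holds them in the gelatinous stroma around its vessels.

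The lower birth weight (LBW) neonates lay between the 5th and 25th centile and the average birth weight (ABW) neonates between the 50th and 75th centile of birth weight. Total RNA was labelled with 1 dye and hybridised to 22 rhesus macaque arrays: 4 LBW and 4 ABW arrays each for skeletal muscle (biceps femoris) and umbilical cord, and 3 LBW and 3 ABW arrays for liver. Per the study, the neonates were female, all had the same sire, and growth was not manipulated. Cords were taken at birth, and muscle and liver on postnatal day 5 from 8 selected neonates. The methods do not say whether the cord arrays came from these 8. Arrays labelled as different tissues can therefore come from 1 animal, but the labels do not tie them to animals, and the tests treated each array as a separate sample. Values are log2 signals relative to the array's own 75th percentile, so that 0 is the signal which 75% of the probes of that array do not exceed. Values of different genes come from different probes and were not set against each other.

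Of 2 tissue labels, the marker genes go against the names. On the arrays labelled liver, 5 of 9 hepatocyte markers (AHSG, ALB, APOA1, CPS1 and FGB) were at background on all 6 arrays, and on the arrays labelled umbilical cord all 9 were well above background on all 8. The summed level of the hepatocyte list ran from -0.94 to 0.37 on the arrays labelled liver and from 9.92 to 11.40 on those labelled umbilical cord. That of 7 fibroblast and mesenchyme markers ran the other way, from 8.68 to 9.07 on the arrays labelled liver and from 2.86 to 4.12 on those labelled umbilical cord. The deposited labels are kept below and always written as labels. Skeletal muscle carried its own markers, with all 7 striated muscle probes well above background on all 8 arrays. The 75th percentile of the signal ran from 315 to 2390 and 14594 to 17887 probes of an array were well above background. The 2 arrays of slide 6, both ABW and labelled umbilical cord, stood apart in the net signal of their negative controls (16.7 and 17.1, against 29.2 to 35.3 on the other slides) and were extracted with another protocol version.

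All 8 genes, and the OGN transcript, were higher on every array labelled liver than on every array of muscle and of labelled umbilical cord. Of all 17117 probes tested, 10.3% had this pattern. VCAN had the largest difference in means from both other labels, with a lowest value of 4.73, a median of 5.17 and a highest value of 5.49 over the 6 arrays labelled liver. Its values ran from -1.64 over a median of -1.06 to 0.11 on the 8 muscle arrays. On the 8 arrays labelled umbilical cord they ran from -2.23 over -1.60 to -0.02. Muscle and labelled umbilical cord thus overlapped for VCAN, far below labelled liver.

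**Figure D1:**
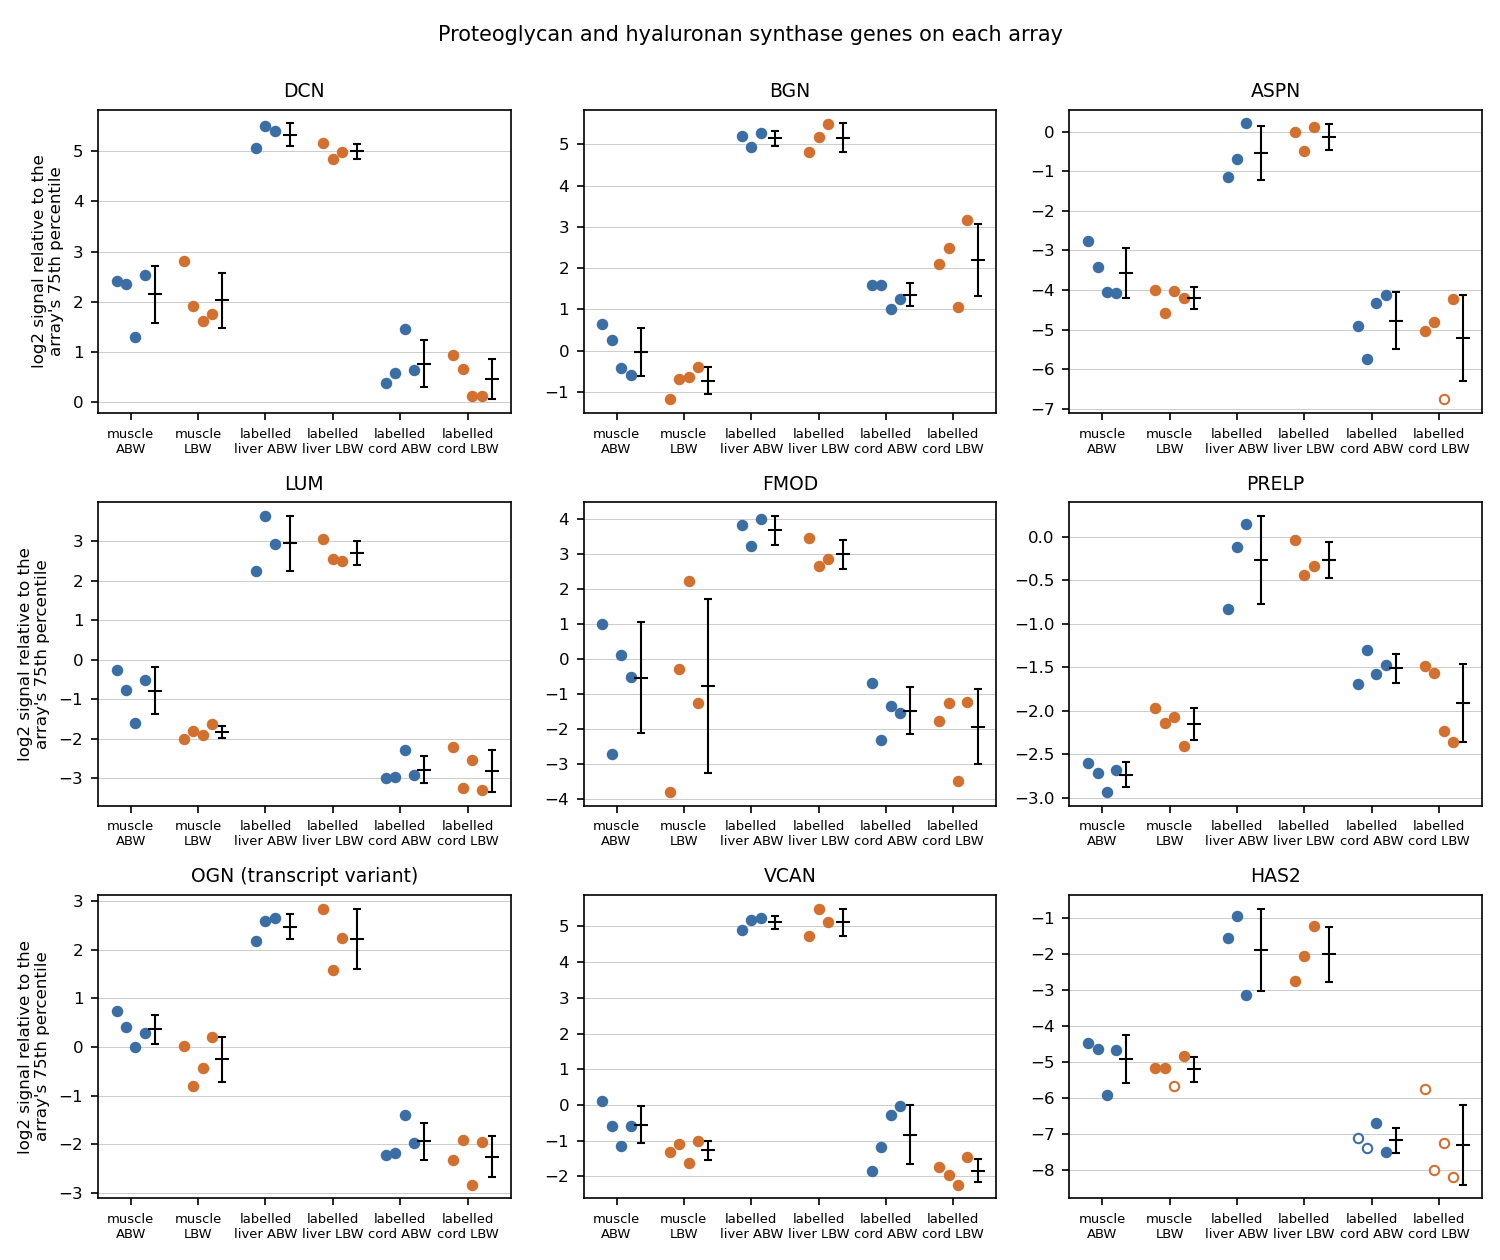
Each panel plots 1 gene, with the log2 signal relative to the array's 75th percentile on the vertical axis (a separate scale in each panel) and the 6 groups on the horizontal axis. Filled points are arrays where the probe was well above background and open points where it was not, with ABW in blue and LBW in orange, and the black mark beside each group is its mean with 1 SD (n = 3 or 4 arrays). In every panel the 6 arrays labelled liver lie above the other 16.

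Decorin and biglycan, close relatives that each carry chondroitin or dermatan sulfate chains, differed in where they came next. DCN ranged from 4.84 to 5.49 (median 5.11) on the arrays labelled liver, from 1.30 to 2.82 (median 2.13) in muscle and from 0.13 to 1.47 (median 0.62) on the arrays labelled umbilical cord. BGN ranged from 4.80 to 5.49 (median 5.19) on the arrays labelled liver, from -1.18 to 0.64 (median -0.50) in muscle and from 1.01 to 3.16 (median 1.59) on the arrays labelled umbilical cord. For DCN, muscle thus came second and overlapped a little with labelled umbilical cord. For BGN, muscle was lowest, with each muscle array below each array of labelled umbilical cord. ASPN, or asporin, which belongs to the same class, followed DCN in its order, with muscle and labelled umbilical cord overlapping: it ran from -1.14 to 0.21 on the arrays labelled liver, -4.58 to -2.75 in muscle and -6.76 to -4.13 on the arrays labelled umbilical cord, where it was well above background on 7 of 8 arrays.

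The keratan sulfate proteoglycans of the family, lumican and fibromodulin, bind overlapping sites on fibrillar collagen. LUM ran from 2.26 to 3.64 (median 2.75) on the arrays labelled liver, from -2.0 to -0.24 (median -1.62) in muscle and from -3.28 to -2.20 (median -2.93) on the arrays labelled umbilical cord. The 3 labels did not overlap for LUM. FMOD ran from 2.64 to 3.99 (median 3.34) on the arrays labelled liver and from -3.50 to -0.69 (median -1.46) on those labelled umbilical cord, but in muscle it spread from -3.81 to 2.23 (median -0.40), so that muscle covered the whole range of labelled umbilical cord.

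PRELP, an arginine- and proline-rich member that binds heparan sulfate and basement membranes, had the smallest difference in means between labelled liver and the other labels. It ran from -0.84 to 0.14 (median -0.23) on the arrays labelled liver, from -2.36 to -1.31 (median -1.58) on those labelled umbilical cord and from -2.94 to -1.98 (median -2.51) in muscle. As for BGN, muscle was lowest, although here muscle and labelled umbilical cord overlapped. The OGN transcript (osteoglycin, or mimecan) ran from 1.59 to 2.83 on the arrays labelled liver, from -0.81 to 0.74 in muscle and from -2.83 to -1.40 on those labelled umbilical cord, again without overlap between the 3 labels.

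HAS2 was not well above background on part of the arrays, where its values are only upper bounds. It was well above background on all 6 arrays labelled liver (-3.15 to -0.95, median -1.82) and on 7 of 8 muscle arrays (-5.92 to -4.48, median -5.00). On the arrays labelled umbilical cord it was well above background on 2 of 4 ABW arrays and on none of 4 LBW arrays (-8.18 to -5.74 over both groups, median -7.31). The 2 arrays above background were those of slide 6, which had the lower negative controls. The dim arrays were also set to the lowest signal among probes well above background. HAS2 was then 23.9-fold higher on the LBW arrays labelled liver than on the LBW arrays labelled umbilical cord. This value depends on the background correction.

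In the limma fit of the 6 groups, all 8 genes were higher on the arrays labelled liver than on those labelled umbilical cord at a Benjamini-Hochberg adjusted p under 0.05, a direction and call that 31.3% of all probes shared. The differences were 6.45 ± 0.26 on the log2 scale (± SE) for VCAN, 5.62 ± 0.25 for LUM, 5.27 ± 0.39 for HAS2 and 5.04 ± 0.69 for FMOD. For ASPN, DCN, BGN and PRELP they were 4.66 ± 0.35, 4.54 ± 0.24, 3.37 ± 0.27 and 1.45 ± 0.18. Their median was 4.85, against -0.13 over all probes. The largest adjusted p among the 8 was 2.3e-06, for FMOD. The HAS2 value rests on dim arrays and is 4.85 with these at the lowest detectable signal, or 2.01 with normexp background correction, under which ASPN was 2.92. The cause of the difference between labels was not tested, and in whole tissue RNA a larger share of matrix-producing cells cannot be told apart from more RNA in each such cell.

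**Figure D2:**
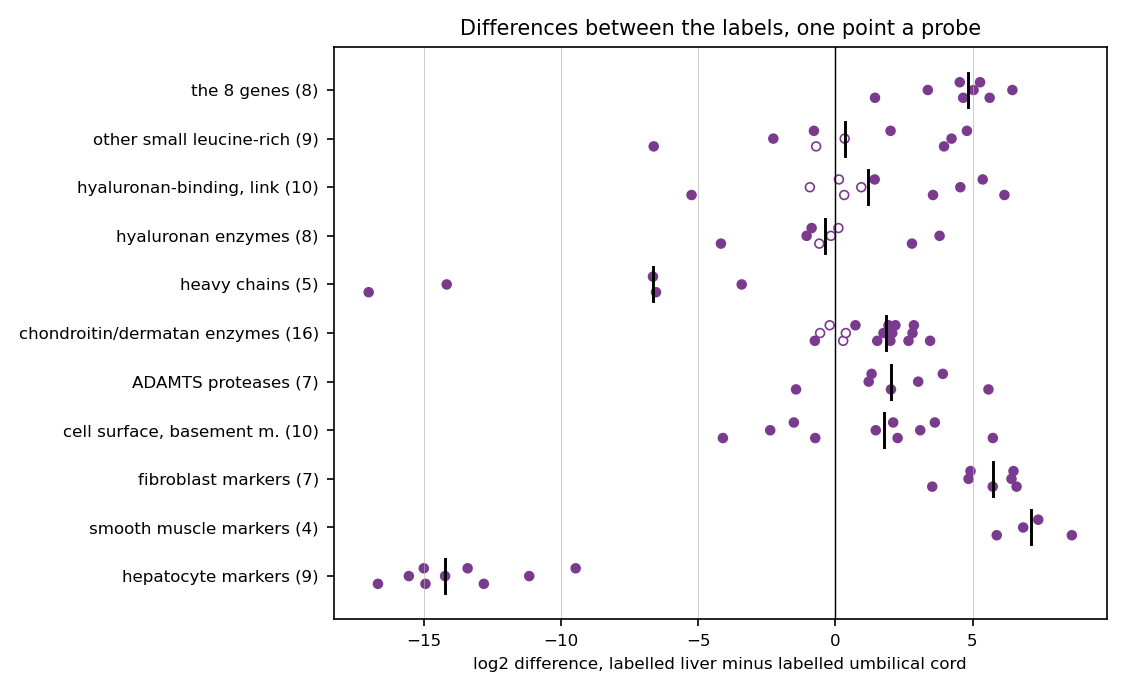
Each point is 1 probe, placed on the horizontal axis by its log2 difference, labelled liver minus labelled umbilical cord, with the gene lists in rows and the number of probes in brackets. Filled points have an adjusted p under 0.05, and the black bar in each row is the median. All 8 proteoglycan and hyaluronan synthase genes lie between 1.45 and 6.45, on the side of the fibroblast and smooth muscle markers and opposite to the hepatocyte markers.

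All 8 genes were likewise lower in muscle than on the arrays labelled liver, as were 28.1% of all probes. The difference, muscle minus labelled liver, was -6.03 ± 0.26 for VCAN, -5.53 ± 0.27 for BGN and -2.17 ± 0.18 for PRELP. The remaining 5 genes lay between -4.13 (LUM) and -3.07 (DCN). The largest limma adjusted p was 4.5e-05, again for FMOD. Slides 1 and 2 held all muscle arrays and no others. In this and the next comparison tissue and slide thus cannot be told apart.

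Between muscle and labelled umbilical cord the 8 genes did not move as a group. Of them, 6 passed the adjusted threshold, where 64.9% of all probes did in either direction. HAS2 (2.16 ± 0.36), LUM (1.49 ± 0.23), DCN (1.47 ± 0.22) and ASPN (1.1 ± 0.33) were higher in muscle, with adjusted p from 6.5e-06 to 0.0057 in the limma fit. BGN (-2.16 ± 0.25) and PRELP (-0.73 ± 0.16) were lower in muscle, with adjusted p of 1.8e-07 and 0.00059. Among LBW arrays alone, PRELP (-0.24, adjusted p = 0.40) and ASPN (1.01, adjusted p = 0.072) lost their calls in the limma fit, and with normexp background correction ASPN (0.32) and HAS2 (0.43) did. VCAN (0.42 ± 0.24, adjusted p = 0.13) and FMOD (1.05 ± 0.64, adjusted p = 0.16) did not pass. The OGN transcript was 2.15 ± 0.21 higher in muscle, and 0.86 with spike-in scaling, where it lost its call. These calls depend on the scaling: relative to spike-in controls the median difference of all probes moved from 0.11 to -1.18, ASPN turned to -0.19, and 2 of the 8 genes (BGN and PRELP) kept an adjusted p under 0.05.

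**Figure D3:**
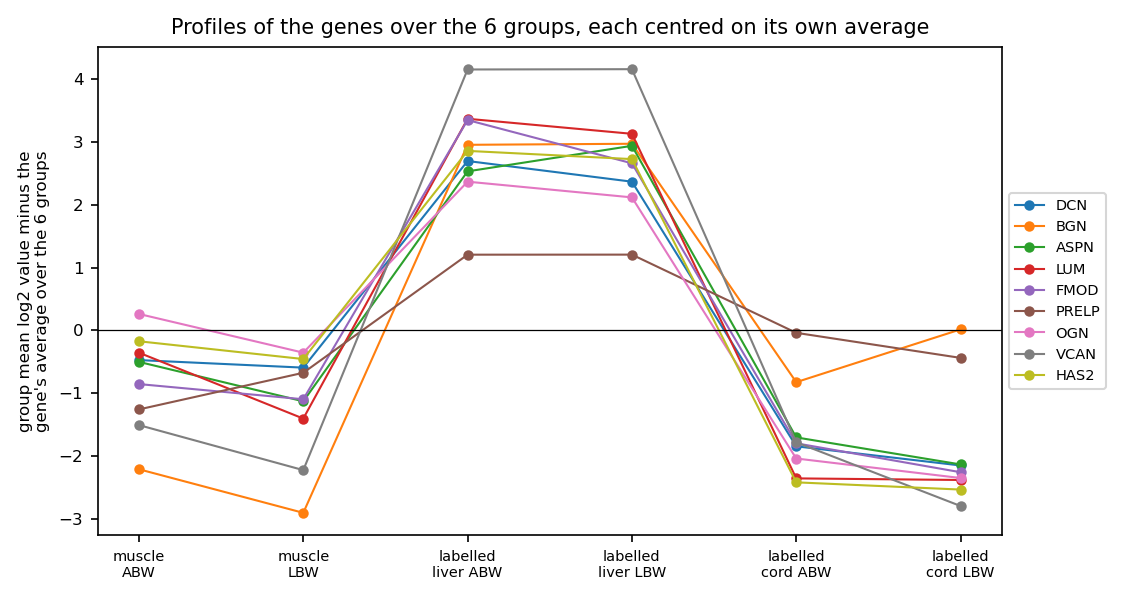
The group mean of each gene in the 6 groups (horizontal axis) is plotted as a log2 difference from that gene's own average over the groups (vertical axis), and lines only join the points of 1 gene. The 9 profiles peak in the same pair of groups, labelled liver; VCAN lies furthest above its average there and PRELP least, while BGN and PRELP are the profiles whose muscle values lie below those of labelled umbilical cord.

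Likeness of profile was measured as the root mean square difference between 2 genes' group means, each profile centred on its own average over the 6 groups. Within the set, DCN was closest to ASPN (0.33 on the log2 scale) and to HAS2 (0.35), and LUM was closest to FMOD (0.39). The most unlike pair was VCAN and PRELP (2.18). Of all probes tested on the array, the 3 closest to LUM included LOX (0.21), which crosslinks collagen, the closest to HAS2 was SPARC (0.15), a collagen-binding matrix protein, and the second closest to DCN was TIMP2 (0.18), an inhibitor of matrix proteases. HTRA1 (0.18) was second for HAS2, IGFBP7 (0.15) came first for ASPN, SLC2A3 (0.20) came first for FMOD, and KRT14 (0.27) was among the 3 closest to VCAN. Probes named here only by accession came closest to BGN (NM_000828, 0.29), PRELP (NM_002257, 0.14), VCAN (NM_015424, 0.13), DCN (NM_007150, 0.12), LUM (NM_198797, 0.21) and the OGN transcript (AK093924, 0.13). With 6 group means dominated by 1 pair of groups, many probes come close, and the ranks are a description.

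Several of these genes are neighbours in the genome. In the RefSeq gene list of the cynomolgus macaque assembly T2T-MFA8v1.1, used here for names and order only, LUM and DCN are neighbouring protein-coding genes on chromosome 11 with KERA and EPYC, FMOD and PRELP are neighbours on chromosome 1 followed by OPTC, and OGN, OMD, ASPN and ECM2 lie in a row on chromosome 15. VCAN lies beside HAPLN1, a link protein gene, on chromosome 6, and BGN lies on X. The neighbours FMOD and PRELP had profiles 1.5 apart, the neighbours LUM and DCN 0.58 apart, and ASPN and OGN, which flank OMD, 0.58 apart.

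Differences with birth weight were examined first within each tissue label. In skeletal muscle 7 of the 8 genes had a lower mean in LBW than in ABW neonates, as did 7302 of all 17117 probes. The median difference was -0.46 on the log2 scale, against 0.07 over all probes. None of the 8 passed an adjusted p under 0.05 (0% of all probes did). At the thresholds of the study, a difference of 1.5-fold or more with an unadjusted p under 0.05, LUM, VCAN and BGN were lower, where 2.5% of all probes were lower and 9.7% higher by this rule. That background turns with the scaling: of 17117 probes 428 were lower and 1661 higher, but 2391 lower and 220 higher relative to spike-in controls, where ASPN joined the 3 genes. None of the 8 was higher by it. The groups of 2 genes, LUM and PRELP, did not overlap, as was so for 10.5% of all probes.

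LUM measured -0.24, -0.77, -1.61 and -0.50 on the 4 ABW muscle arrays and -2.0, -1.80, -1.90 and -1.63 on the 4 LBW arrays. The LBW values were tight and all below the ABW values, although the third ABW array nearly touched them. The difference was -1.05 ± 0.29 (95% interval -1.70 to -0.40, or 2.07-fold lower), with an unadjusted p of 0.0051 and a limma adjusted p of 0.15. VCAN measured 0.11, -0.58, -1.16 and -0.59 in ABW and -1.32, -1.11, -1.64 and -1.02 in LBW muscle. Again the third ABW array lay among the LBW arrays and the other 3 above them. VCAN fell by 0.72 ± 0.28 (95% interval -1.35 to -0.09, limma adjusted p = 0.28).

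BGN measured 0.64, 0.25, -0.42 and -0.59 in ABW and -1.18, -0.69, -0.64 and -0.39 in LBW muscle, so that only the first and second ABW arrays were clear of the LBW arrays. It fell by 0.69 ± 0.31 (95% interval -1.38 to -0.01, limma adjusted p = 0.34). ASPN, with a difference of -0.63 ± 0.31 and an unadjusted p of 0.074, HAS2 (-0.28 ± 0.34), FMOD (-0.24 ± 1.20) and DCN (-0.12 ± 0.35) did not pass even the unadjusted threshold. The OGN transcript measured 0.74, 0.41, 0.01 and 0.29 in ABW and 0.02, -0.81, -0.44 and 0.20 in LBW muscle, a difference of -0.62 ± 0.27 (limma adjusted p = 0.33) with overlapping groups.

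PRELP went the other way. Its ABW muscle arrays measured -2.60, -2.72, -2.94 and -2.69 and its LBW arrays -1.98, -2.15, -2.08 and -2.41. All 4 LBW values were above all 4 ABW values, with a difference of 0.58 ± 0.17 (95% interval 0.19 to 0.98). The unadjusted p was 0.0081 and the limma adjusted p 0.17, and the difference fell just short of the study's threshold of 1.5-fold. Relative to spike-in controls, where the median of all probes moved from 0.07 to -0.39, the PRELP difference was 0.13 and that of LUM -1.50.

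**Figure D4:**
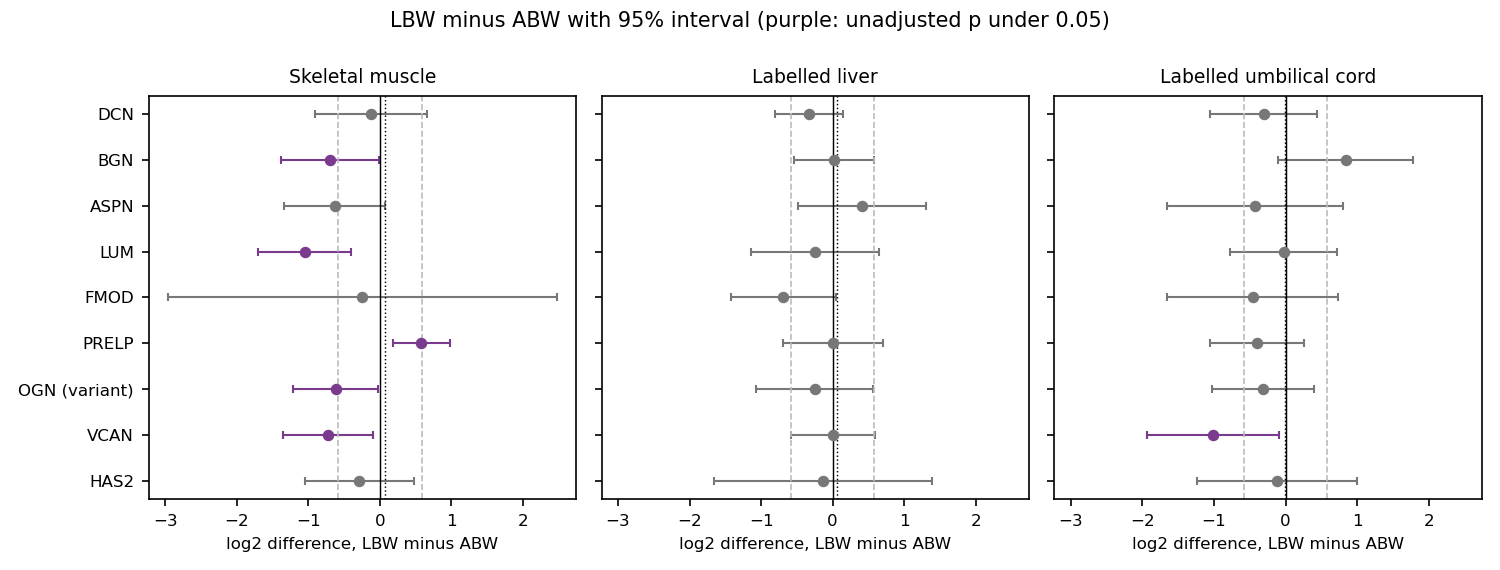
For each gene (rows) the point is the log2 difference LBW minus ABW and the bar its 95% interval, in skeletal muscle (4 against 4 arrays), labelled liver (3 against 3) and labelled umbilical cord (4 against 4). Dashed lines mark a 1.5-fold difference, the dotted line the median of all probes, and purple an unadjusted p under 0.05, which in muscle takes in LUM, VCAN, BGN, PRELP and the OGN transcript and in labelled umbilical cord VCAN. Of all 17117 probes, 2524 had an unadjusted p under 0.05 in muscle and 1531 in labelled umbilical cord. No adjusted p in the plot is under 0.05.

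The ABW muscle arrays shared 1 slide and the LBW muscle arrays another, and the effects of the slide and of birth weight cannot be told apart. Of the fibroblast markers, 6 of 7 had a lower mean in LBW muscle (median -0.70). COL1A1 (-1.05), COL1A2 (-0.93) and POSTN (-1.77) had an unadjusted limma p under 0.05, as did 2524 of all 17117 probes. The summed level of the list ran from 5.55 to 6.42 in ABW and from 4.75 to 5.98 in LBW muscle. Erythroid markers were higher in LBW by their means, 4 of 4 (median 0.75), and macrophage markers lower, 3 of 3 (median -0.59). The part of these cell types in the result was not tested. LUM passed the study's thresholds whichever muscle array was left out. VCAN did not without ABW array 1, 2 or 4 or LBW array 1 or 3, and BGN did not without ABW array 1 or 2 or LBW array 1, 2 or 3. PRELP passed without ABW array 1, 2 or 4 or LBW array 4, ASPN without ABW array 3 or 4 and HAS2 without ABW array 3.

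Fibromodulin varied within muscle in another way. On the ABW arrays FMOD measured 1.0, -2.73, 0.09 and -0.51 and on the LBW arrays -3.81, -0.28, 2.23 and -1.27. Both groups held a very low array, the second of ABW and the first of LBW, and the range of 6.04 on the log2 scale was wider than the 1.51 of DCN. Only 0.444% of all probes had as large an SD over the 8 muscle arrays. TNMD (tenomodulin), a marker of tendon cells that was picked after its values were seen, measured -0.62, -4.75, -1.21 and -1.25 in ABW and -4.56, -2.13, 0.54 and -2.83 in LBW muscle. The arrays lowest and highest for FMOD were thus also at or near the ends for TNMD. COL2A1, the collagen of cartilage, picked in the same way, measured -2.21, -6.95, -2.84 and -3.83 in ABW and -8.24, -4.24, -1.92 and -4.46 in LBW muscle. It was not well above background on the second ABW and the first LBW array, where FMOD was lowest. COMP, a cartilage and tendon matrix protein picked likewise, was also lowest on these arrays, at -5.71 and -5.32, but was nearly as low (-5.10) on the fourth LBW array, where FMOD measured -1.27. TNMD and COMP were not particular to muscle. Their means were 0.93 and 2.26 on the arrays labelled liver against -2.10 and -3.50 in muscle. COL2A1 went the other way, at -6.98 on the arrays labelled liver and -4.34 in muscle. THBS4, read with this set, was also lowest in muscle on the second ABW (-0.92) and the first LBW array (-1.68). Its SD over the 8 muscle arrays was 0.84, against 1.94 for FMOD. THBS4 too was higher in muscle, with a mean of -0.13 against -6.35 on the arrays labelled liver. The part of tendon or cartilage tissue in the spread of FMOD was not tested.

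**Figure D5:**
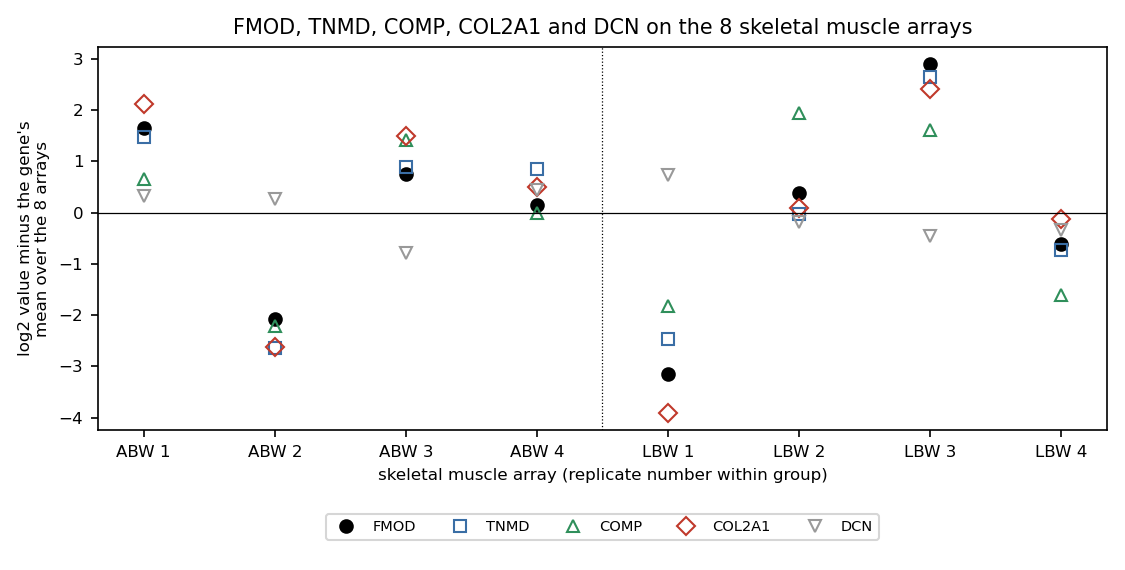
The log2 value of each gene minus its mean over the 8 skeletal muscle arrays (vertical axis) is plotted for each array (horizontal axis, ABW left and LBW right of the dotted line). FMOD (filled circles), TNMD, COMP and COL2A1 are all lowest or second lowest on ABW array 2 and LBW array 1 and spread over several log2 units, while DCN stays within 1 unit of its mean.

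On the arrays labelled liver, none of the 8 genes differed by birth weight at either threshold. None passed an adjusted p under 0.05 (0% of all probes did), none passed the study's thresholds (4.71% of all probes did in either direction), and the groups of all 8 overlapped, whereas 12% of all probes had groups that did not. The median difference was -0.07, with 4 genes higher and 4 lower in LBW. FMOD had the largest difference: 3.81, 3.21 and 3.99 in ABW against 3.46, 2.64 and 2.85 in LBW. The difference was -0.69 ± 0.31 (95% interval -1.43 to 0.05, limma adjusted p = 0.83), and -0.21 within slide 3, which held all 3 ABW arrays and 1 LBW array. VCAN and BGN, at 0.00 ± 0.25 and 0.02 ± 0.23, had intervals of -0.58 to 0.59 and -0.55 to 0.58, so differences of up to about 1.5-fold lay within them. HAS2 was least well determined, at -0.13 ± 0.64. The count of 0 at the study's thresholds became 1 without the second ABW array or the first LBW array (FMOD) or without the third ABW array (ASPN, higher).

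On the arrays labelled umbilical cord, 7 of 8 genes had a lower mean in LBW, as did 8707 of all 17117 probes. The median difference was -0.35, against -0.01 over all probes. The median was 0.02 with normexp background correction. None passed an adjusted p under 0.05, where 0.625% of all probes did, and VCAN alone was lower by the study's thresholds, where 5.26% of all probes were. Groups overlapped for all 8 genes, while those of 5.85% of all probes did not. VCAN measured -1.85, -1.16, -0.28 and -0.02 in ABW and -1.73, -1.95, -2.23 and -1.47 in LBW. The 2 high ABW arrays were those of slide 6. All LBW arrays of this label shared slide 5, which held no ABW array. The effects of slide and of birth weight thus cannot be told apart. VCAN fell by 1.02 ± 0.42 (95% interval -1.94 to -0.09, limma adjusted p = 0.54), and the difference was -0.34 against the ABW arrays of slide 4 alone and -1.69 against those of slide 6 alone. Without the third or the fourth ABW array, or the second or the third LBW array, its unadjusted p lay between 0.067 and 0.1, past the threshold.

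BGN measured 1.58, 1.60, 1.01 and 1.24 in ABW and 2.09, 2.49, 1.06 and 3.16 in LBW, all labelled umbilical cord. Of the LBW arrays, 3 lay above all ABW arrays and 1 among them. The difference was 0.84 ± 0.42 (95% interval -0.10 to 1.78, unadjusted p = 0.075). DCN (-0.31 ± 0.34), PRELP (-0.40 ± 0.30), FMOD (-0.46 ± 0.54), ASPN (-0.43 ± 0.55) and LUM (-0.03 ± 0.34) had 95% intervals that included 0, and HAS2 was not well above background on 6 of the 8 arrays. BGN passed the study's thresholds, higher in LBW, with a spread shared by the 6 groups, with slide as a random block and without the third LBW array. As no slide held both birth weight groups of this label, the random block cannot take out a slide effect. Of the markers on these arrays, 4 of 4 for smooth muscle had a higher mean in LBW (median 0.71, summed levels 2.27 to 3.21 in ABW and 2.35 to 3.86 in LBW). The 4 for endothelium were also higher by their means (median 0.59) and the 4 erythroid markers lower (median -1.07). Fibroblast markers were divided, 4 higher and 3 lower (median 0.03), and hepatocyte markers were 6 higher and 3 lower (median 0.45). The part of these cell types in the values of VCAN and BGN was not tested.

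Over the 3 tissue labels together, VCAN had the lowest p of the 8 genes, with a mean difference of -0.58 ± 0.21 (95% interval -1.0 to -0.15, unadjusted p = 0.011, limma adjusted p = 0.23). LUM followed with -0.44 ± 0.20 (adjusted p = 0.34), and the OGN transcript measured -0.39 ± 0.18 (adjusted p = 0.35). None of the 8 passed the adjusted threshold, which 0.888% of all probes passed. A further test asked whether the birth weight difference itself differed between labels. BGN, lower in LBW muscle and higher in LBW labelled umbilical cord by its means, had the lowest p of this test (0.020, limma adjusted p = 0.34), followed by PRELP, which ran the opposite way (0.024, adjusted p = 0.36). No gene of the 8 passed the adjusted threshold of the interaction, as 1.01% of all probes did.

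The other genes of the pathway were read from lists of relatives, enzymes and proteases. Of 9 other small leucine-rich proteoglycans, 4 exceeded on labelled liver their level on labelled umbilical cord, 3 were below it and 2 were not called. Over all probes, 31.3% were called higher and 35.6% lower in this comparison. PODN (4.80), OMD (4.24) and EPYC (3.96) were higher, but EPYC was well above background on 1 of 8 arrays labelled umbilical cord and differed by 0.64 with normexp. CHAD (-6.62), or chondroadherin, TSKU (-2.26) and OPTC (-0.78) were lower. Of 10 hyaluronan-binding proteoglycans and link proteins 5 were higher, among them HAPLN1 (6.16), a link protein that fixes versican or aggrecan to hyaluronan, HAPLN3 (5.37) and TNFAIP6 (4.56), and 1 was lower, the scavenger receptor STAB2 (-5.24), which takes up hyaluronan in liver sinusoids. HAPLN1 and TNFAIP6 were well above background on 1 of 8 arrays labelled umbilical cord, so their differences depend on the dim arrays, and were 2.16 and 0.97 with normexp.

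Enzymes of hyaluronan went both ways. Of 8 probes, HAS1 (3.8), another hyaluronan synthase, and CEMIP (2.79), which takes part in hyaluronan breakdown, were higher on the arrays labelled liver, and HYAL1 (-4.17), UGDH (-1.05) and HYAL3 (-0.86) were lower. UGDH makes the UDP-glucuronate that hyaluronan synthases use. The 5 probes of the inter-alpha-inhibitor family, serum proteins whose heavy chains are transferred to hyaluronan, were all lower on the arrays labelled liver. Of these, AMBP and ITIH2 were at background on all 6 arrays labelled liver. With those arrays set to the lowest signal among probes well above background, AMBP was 43115-fold and ITIH2 7238-fold higher on labelled umbilical cord. These folds depend on the processing: the AMBP difference ran from -17.58 to -12.14 on the log2 scale over the other settings. ITIH1 differed by -6.65.

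Of 16 probes for enzymes that build chondroitin and dermatan sulfate, the chains of versican, decorin and biglycan, 11 were higher on the arrays labelled liver and 1, B3GAT3, was lower (-0.75), beside the 31.3% and 35.6% of all probes. The largest were both probes of CSGALNACT2 (3.45 and 2.86), which starts chondroitin chains, and XYLT1 (2.81), which attaches the first sugar to the core protein. XYLT1 lost its call with normexp (0.53, limma adjusted p = 0.094). Of 7 probes for proteases that cut these proteoglycans, 6 were higher, led by ADAMTS4 (5.58), ADAMTS1 (3.92) and ADAMTS5 (3.02), and ADAMTS20 was lower (-1.43). Cell surface and basement membrane proteoglycans divided 6 to 4. HSPG2, or perlecan (5.74), GPC4 (3.63) and GPC1 (3.09) were higher, and SDC1, or syndecan-1 (-4.10), SDC4 (-2.37) and GPC3 (-1.51) were lower. Of the list genes named here, HAS1, HYAL3, OPTC, B3GAT3 and ADAMTS20 lost their calls within slide 4, which holds 2 LBW arrays labelled liver and 2 ABW arrays labelled umbilical cord, with limma adjusted p from 0.12 to 0.45. HYAL3, OPTC and B3GAT3 did so with spike-in scaling too, HYAL3 among ABW arrays alone, and OPTC and ADAMTS20 among LBW arrays alone.

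With birth weight, 1 list gene passed an adjusted p under 0.05. A probe of CSGALNACT2 measured -4.96, -5.36, -4.17 and -4.22 on the ABW and -7.53, -8.25, -8.12 and -8.77 on the LBW arrays labelled umbilical cord, where it was well above background on all 4 ABW and none of the LBW arrays. It was thus at least 4.04-fold higher in ABW (limma adjusted p = 0.0071). Its second probe differed by -0.28 ± 0.34 there (adjusted p = 0.83), so the probes of this gene disagree. With normexp background correction the first probe's difference was -0.05.

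In muscle, genes of the other lists at the study's thresholds, named because there were few, were OPTC (1.11) and PODNL1 (1.30) among the small leucine-rich relatives, both probes of HAS3 (0.62 and 0.62), ADAMTS15 (1.25) and SDC1 (0.60), all higher in LBW, and DSE (-0.89), the epimerase that makes dermatan sulfate, and ADAMTS9 (-0.69), both lower. By this rule 9.7% of all probes were higher and 2.5% lower. All probes called higher numbered 1661, but 380 with normexp and 220 with spike-in scaling. The genes named as higher were well above background but dim, with muscle means from -4.88 (a HAS3 probe) to -2.10 (OPTC). The lowest adjusted p among all the genes named was 0.094, for PODNL1. The other small leucine-rich relatives, 5 higher and 4 lower in LBW, had a median difference of 0.45 in muscle. That of the 8 genes was -0.46, and the contrast was not tested. The genes named here were chosen after their values were seen.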

How the data were processed

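Total RNA of skeletal muscle, labelled liver and labelled umbilical cord had been hybridised to single-colour Agilent rhesus arrays with 2 spots per probe. Per the file headers, spot intensity was extracted with Agilent Feature Extraction, which subtracts background, and the authors scaled signals to the 75th percentile and baseline-transformed them in GeneSpring. The deposited log2 values, which are centred on a median within each tissue label, served as an alternative only.

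Here log2 of the processed intensity, averaged over a probe's spots that were not flagged as outliers, was set relative to each array's 75th percentile without its control spots. Probes passed the filter if 1 or more of the 6 groups had them well above background on 75% of its arrays or more (17117 of 20217 probes). Differences between birth weight groups were tested within each tissue label, and the mean, the interaction and the label differences in 1 fit of all 6 groups, with limma 3.58.1 in R 4.3.3 and Benjamini-Hochberg adjustment over all probes kept. The interaction was tested with limma's moderated F. The study's own thresholds, an unadjusted p under 0.05 and 1.5-fold, were applied to limma's p unless the methods' t-test is named. Labels give no animals, so p-values measure the spread between arrays, which may be partly technical, and the number of arrays limits the precision. Gene order came from the RefSeq list of a newer macaque assembly than the array's. In simulated data, 145 of 200 probes changed by 2 on the log2 scale were recovered in the muscle comparison of 17117 probes. In labelled liver 135 and in labelled umbilical cord 104 were recovered. Smaller changes, such as those of the 8 genes with birth weight, were not simulated.

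The 8 genes and all 17 lists were chosen with earlier results of these data known. Accessions were paired with symbols by hand, 125 of 151 being on the array. Of 9 that the study's supplement also names, 8 carry the same symbol and CEMIP an older one. List genes were named by an adjusted p under 0.05 with birth weight, or as up to 3 of the largest called differences each way between labels, and profile likeness by up to 3 closest probes. TNMD, COL2A1, COMP, THBS4 and the list genes at the study's thresholds in muscle were chosen after their values were seen. Where a probe was not above background on dim arrays, these were set to the lowest signal among probes well above background on each. Such values depend on the background correction and the scaling. Alternatives were normexp background correction, other scalings (median, spike-in controls, quantile), the deposited values, a floor, other filters, the methods' t-test, a shared spread, array weights, slide and replicate blocks, averaged probes and leaving out each array. Leaving out slide 6 was chosen after seeing the data.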

Additional observations from a re-analysis of the deposited data

Results flagged for a closer look

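In groups of 4 arrays, 36 sets of values were screened for an array far from the others, and 3 were found, while chance gives about 1 in 20. DCN was lowest on the third ABW muscle array at 1.30, against 2.35 to 2.52 on the other 3. HAS2 was lowest on the same array at -5.92, against -4.66 to -4.48. LUM was highest on the third ABW array labelled umbilical cord at -2.27, against -2.99 to -2.92, and that array is on slide 6.

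The birth weight difference of a CSGALNACT2 probe differed between tissue labels in the limma fit (interaction, adjusted p = 0.0050). It was -3.49 in labelled umbilical cord, where no LBW array was well above background, -0.75 in muscle and -0.11 in labelled liver. The second probe of the gene had an unadjusted interaction p of 0.72 in the same fit.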

How the results depend on the processing

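No alternative gave any of the 8 genes an adjusted p under 0.05 with birth weight. By the study's thresholds muscle had 3, 1 with normexp, the methods' t-test or array weights, and 4 with spike-in scaling or quantile normalization (1 to 5 leaving out an array). Labelled liver had 0, and 1, FMOD, with normexp, array weights or the replicate block (0 to 1 leaving out an array). Labelled umbilical cord had 1, but 0 with spike-in scaling, the t-test, array weights or the ABW arrays of slide 4 alone, and 2, VCAN lower and BGN higher, with a shared spread or slide as a random block (0 to 1 leaving out an array, BGN in place of VCAN without the third LBW array). No slide held both birth weight groups of that label, so the random block cannot take out a slide effect. Same-numbered ABW and LBW arrays of 1 label come from different neonates. Their deviations from the group means correlated from -0.22 to 0.30, and nothing in the labels pairs them. The replicate block gave 2 genes in muscle, 1 in labelled liver and 1 in labelled umbilical cord.

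Between labels, PRELP lost its call against labelled umbilical cord under spike-in scaling (0.87, adjusted p = 0.26), and all 8 stayed lower in muscle than in labelled liver in every setting run. Muscle against labelled umbilical cord depended most on scaling. Spike-in controls left 2 calls of 6, turned ASPN to -0.19 and reduced DCN, LUM, HAS2 and the OGN transcript to 0.17, 0.20, 0.87 and 0.86. Normexp reduced HAS2 and ASPN to 0.43 and 0.32, and LBW arrays alone gave PRELP -0.24 and ASPN 1.01, none called. VCAN passed with array weights (0.61), without the fourth ABW array labelled umbilical cord (0.56) or without slide 6 (0.76), and FMOD without the first LBW muscle array (1.56). Cause was not tested. HAS2 is limited by signal: its values on 6 arrays labelled umbilical cord are upper bounds.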
